A study of Mus musculus with 21 samples.

Results

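The 10 genes described here are markers that are used to recognise resident macrophages of the mouse heart: Timd4, Lyve1, Folr2, Cd163, Mrc1, Vsig4, Cbr2, Adgre1, Csf1r and Ms4a7. They were listed by name, with earlier results of these data known, and are 10 of the 53801 genes counted. Expression was measured by RNA-seq at day 7 in 15 heart libraries, whose tissue the labels call the border zone. In infarcted hearts that is muscle beside the infarct, and sham hearts had no infarct. FapKO hearts (4) carried a Fap knockout genotype and had a myocardial infarction (MI). FAPI hearts (4) were wild type with MI and FAPI, read from the series title as an inhibitor of Fap, the membrane protease fibroblast activation protein. MI hearts (4) were wild type with MI alone, and sham hearts (3) were wild type after a sham operation. The sources used here do not name the inhibitor compound, its dose, the vehicle, the mouse strain, the kind of knockout allele or whether controls were littermates. The infarct and the operation are shared by the FapKO, FAPI and MI hearts, so FapKO against MI compares genotypes and FAPI against MI compares treatments. Nothing in the labels says that the hearts of a group are separate animals, so a p-value here covers only the spread among libraries, which may be technical.

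Resident cardiac macrophages settle in the heart largely before birth and maintain themselves there with little input from blood monocytes. After an infarct, recruited monocytes enter the tissue and give rise to further macrophages, which share many surface proteins with the resident cells. Some of the 10 genes are therefore markers of macrophages at large, and others are used to tell resident cells from recruited ones. Adgre1 encodes F4/80, an adhesion G protein-coupled receptor that marks mouse macrophages broadly. Csf1r encodes the receptor for the macrophage growth factors made from Csf1 and Il34. Ms4a7 encodes a membrane protein of the MS4A family found in macrophages. Mrc1 encodes the mannose receptor, Cd163 the scavenger receptor for haemoglobin bound to haptoglobin, and Vsig4 a receptor for complement fragments. Cbr2 encodes a carbonyl reductase. Lyve1 encodes a hyaluronan receptor that is also a marker of lymphatic endothelium. Timd4 encodes a receptor for phosphatidylserine on dying cells, and Folr2 encodes a folate receptor; both are used as markers of long-lived tissue macrophages.

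Heart libraries held 18474138 to 37287355 gene counts. Fap itself had 51, 68, 64 and 46 counts in FapKO hearts, 224 to 349 in FAPI hearts, 285 to 513 in MI hearts and 44 to 56 in sham hearts. The counts that remain in FapKO hearts check nothing about a deletion that leaves part of the transcript. Levels are CPM, counts divided by the library total, after TMM scaling, which adjusts for differences in library make-up. In CPM, Fap lay at 1.79 to 2.36 in FapKO hearts, below the 2.71 to 3.86 of sham hearts. It lay at 6.47 to 10.4 CPM in FAPI hearts and 9.40 to 13.2 CPM in MI hearts. The TMM factors were 0.888 to 0.986 in FapKO hearts, 0.929 to 1.14 in FAPI hearts, 1.24 to 1.55 in MI hearts and 0.626 to 0.697 in sham hearts, so scaling by TMM or by the total count matters. A list of 20 cardiomyocyte genes summed to 69190 to 84080 CPM in FapKO hearts, 47180 to 82990 CPM in FAPI hearts, 13920 to 40810 CPM in MI hearts and 118900 to 140400 CPM in sham hearts. Of these genes, 20 were lower in MI than in sham hearts, 20 were higher in FAPI than in MI hearts and 20 were higher in FapKO than in MI hearts (edgeR, adjusted p at most 0.05). In bulk tissue, fewer macrophages and less marker RNA per macrophage cannot be told apart, and neither can be told from a change in the share of other cells. The part of cardiomyocytes in the marker changes was not tested. With their mean level as a covariate, 0 of 9 tested markers passed in MI against sham, FAPI against MI and FapKO against MI hearts by edgeR, and 3, 1 and 3 had an unadjusted p below 0.05. Of all 17064 genes tested, 869, 26 and 115 passed with this covariate, so few genes of any kind did. The other tools were not run with it.

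Between genes, levels were compared per kilobase of annotated exon. The position of reads along transcripts is not given in the sources used here, so this order assumes reads along the whole transcript. In MI hearts the highest level was that of Ms4a7, at 179 ± 59.4 CPM per kilobase (SD, n = 4). Cbr2 followed at 26.1 ± 11.8, Adgre1 at 15.45 ± 1.72 and Csf1r at 13.4 ± 1.28 CPM per kilobase, and neighbours among these 3 lay less than the sum of their SDs apart. Vsig4, Lyve1 and Mrc1, at means of 4.73 to 6.08 CPM per kilobase, did not differ beyond their spread. Cd163 averaged 1.30 ± 0.627, Timd4 0.517 ± 0.442 and Folr2 0.128 ± 0.0487 CPM per kilobase in the MI hearts. In sham hearts the order was different at the top. Cbr2 led at 43.6 ± 7.60 CPM per kilobase, Ms4a7 came next at 24.9 ± 3.36 and then Lyve1 at 7.09 ± 1.25 (SD, n = 3).

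**Figure D1:**
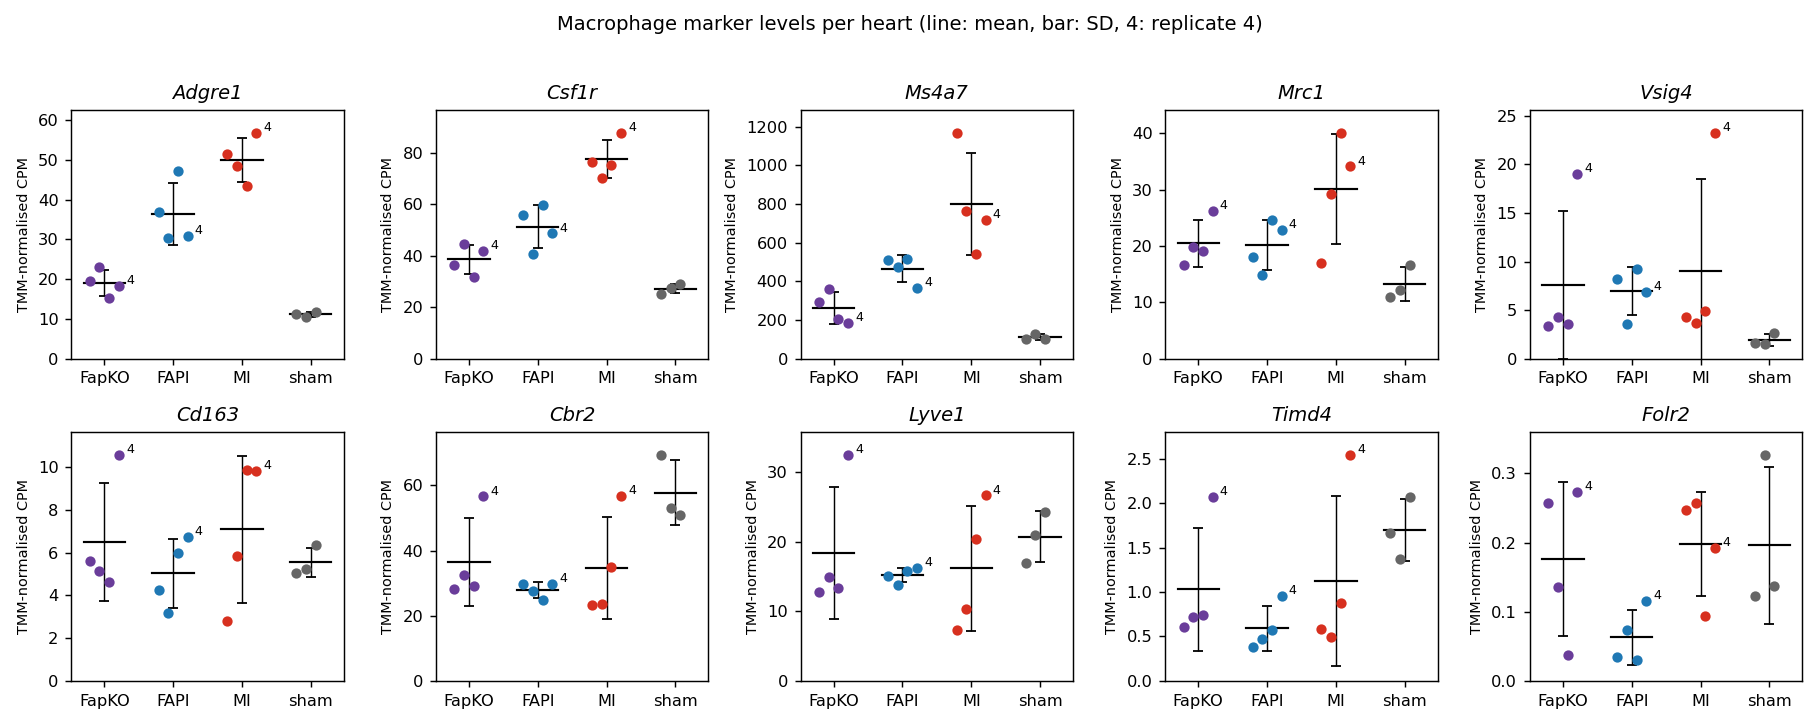
Levels of the 10 markers in each heart (TMM-normalised CPM, linear axes from 0; points are hearts, lines means, bars SD cut at 0 where they would pass below it, and the digit 4 marks replicate 4 of a group). For Adgre1 and Csf1r the FapKO hearts lie below all MI hearts and above all sham hearts, and the FAPI hearts do too except 1 for Adgre1, whereas Vsig4, Cbr2, Lyve1 and Timd4 are pulled up by replicate 4 in the FapKO and MI groups.

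Folr2 was close to undetected. It had 6, 4, 1 and 7 counts in FapKO hearts, 1, 2, 1 and 4 in FAPI hearts, 8, 10, 3 and 5 in MI hearts and 2, 5 and 2 in sham hearts. It did not pass edgeR's filter on low counts, so 9 of the 10 markers were tested among 17064 genes. Without that filter, its smallest adjusted p over 6 comparisons was 0.0951 (FAPI against MI, edgeR; 0.0951 to 1 over the 6 comparisons). Folr2 lies at chr7:101839988-101857194 on the minus strand (mm10, GENCODE M21), and 975 of its 1546 exon bases are shared with Gm10602, an antisense gene that had up to 156 counts. Whether reads were assigned by strand is not given in the sources used here, so reads of the pair cannot be told apart, and the low count does not show that Folr2 RNA was absent. Csf1r shares 873 of its 5774 exon bases with Hmgxb3 on the other strand, which had at most 37 counts against 410 or more for Csf1r.

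Promoter sequences of 7 of the 10 markers were in the RefSeq table used here (GRCm38.p6), as windows from 250 bases before to 50 bases after the start. Those of Mrc1 and Vsig4, which rose after MI, and of Timd4, which did not, are shown up to the start to give the sequence context of markers that moved differently. Mrc1 is on the plus strand at chr2:14229164-14229413, Vsig4 on the minus strand at chrX:96293439-96293688 and Timd4 on the plus strand at chr11:46810549-46810798. Capitals mark GAGGAA, the core letters of a site for the macrophage factor PU.1 (made from Spi1), and TGCTGAC, a MAF half-site, on either strand.
Mrc1: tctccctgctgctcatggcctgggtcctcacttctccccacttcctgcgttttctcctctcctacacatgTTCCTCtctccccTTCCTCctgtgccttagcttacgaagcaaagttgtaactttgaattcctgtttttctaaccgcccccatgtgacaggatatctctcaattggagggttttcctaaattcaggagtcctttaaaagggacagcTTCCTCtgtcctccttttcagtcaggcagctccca
Vsig4: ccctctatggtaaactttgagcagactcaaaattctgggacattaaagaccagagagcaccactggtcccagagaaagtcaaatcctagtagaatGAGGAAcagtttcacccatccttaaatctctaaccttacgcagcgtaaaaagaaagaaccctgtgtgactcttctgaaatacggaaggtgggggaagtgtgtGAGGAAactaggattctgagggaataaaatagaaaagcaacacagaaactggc
Timd4: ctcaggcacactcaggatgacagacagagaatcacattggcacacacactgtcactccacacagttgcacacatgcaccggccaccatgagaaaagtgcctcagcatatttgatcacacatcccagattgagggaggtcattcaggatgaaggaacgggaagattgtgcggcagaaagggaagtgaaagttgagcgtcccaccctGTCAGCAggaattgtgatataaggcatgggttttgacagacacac
Mrc1 held 3 GAGGAA matches on its minus strand, at -180, -167 and -35 from the start, and Vsig4 held 2 on its own strand, at -155 and -53. Timd4 held a MAF half-site on the other strand, read as GTCAGCA in the line above, at -45, and no GAGGAA. Over the whole windows, GAGGAA was in 4 of 7 marker windows, against 28.3% of 32851 windows in the table, and TGCTGAC was in 2 of 7 (Timd4 and Cbr2), against 4.67%. An IRF element, GAAANNGAAA, was in 0 of 7 against 3.44%, and a TATA box, TATAAA, in 0 of 7 against 13.6%. These matches describe letters in a window and are not evidence of binding.

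The first comparison asks what infarction did to the markers. The 3 broad macrophage genes rose several-fold in MI hearts, Mrc1 and Vsig4 also rose, Cbr2 fell with TMM but not with total-count scaling, and Timd4, Lyve1 and Cd163 did not pass the test. Adgre1 had 51.4, 48.4, 43.5 and 56.8 CPM in MI hearts, against 11.3, 10.5 and 11.8 CPM in sham hearts. All MI hearts lay above all sham hearts, and the fold was 4.47 (log2 change 2.16 ± 0.17 SE, adjusted p = 1.94e-08 by edgeR). Csf1r had 76.4, 70.3, 75.0 and 87.7 CPM in MI hearts, against 25.3, 27.6 and 28.9 CPM in sham hearts, again with no overlap (log2 change 1.5 ± 0.14 SE, adjusted p = 1.38e-07 by edgeR). Ms4a7 had the largest fold of the 9 tested markers. It had 1169, 767, 544 and 716 CPM in MI hearts, against 101, 128 and 103 CPM in sham hearts, a 7.22-fold difference (log2 change 2.85 ± 0.27 SE, adjusted p = 1.42e-07 by edgeR).

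Mrc1 had 17.1, 29.2, 40.1 and 34.1 CPM in MI hearts, against 10.97, 12.2 and 16.7 CPM in sham hearts. The groups did not overlap, although the lowest MI heart was within 1 CPM of the highest sham heart (log2 change 1.18 ± 0.26 SE, adjusted p = 0.000677 by edgeR). Vsig4 had 4.27, 3.69, 4.92 and 23.2 CPM in MI hearts, against 1.60, 1.57 and 2.69 CPM in sham hearts. Its log2 fold change was 2.19 ± 0.79 SE (adjusted p = 0.0216 by edgeR), and MI replicate 4 stood far above the other MI hearts. Without that heart the value was 1.14 and the call was lost (adjusted p = 0.119 by edgeR; 9.82e-05 to 0.962 over the settings tried), and it was also lost without sham replicate 1 (2.07) or sham replicate 2 (2.06) and by limma-voom (1.71).

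Cbr2 went the other way. It had 23.2, 23.7, 34.9 and 56.7 CPM in MI hearts, against 69.4, 53.2 and 50.9 CPM in sham hearts. The MI replicate 4 heart lay inside the sham range and the other 3 below it. It fell by 0.74 ± 0.28 SE on the log2 scale (adjusted p = 0.0255 by edgeR), but under total-count scaling the log2 change was 0.34, in the other direction, and did not pass. The call was also lost without sham replicate 1, MI replicate 1 or MI replicate 2, at log2 fold changes of -0.59 each.

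Lyve1 had 7.37, 10.3, 20.4 and 26.6 CPM in MI hearts, against 16.9, 20.9 and 24.3 CPM in sham hearts. The MI hearts spread to both sides of the sham range, and the log2 fold change of -0.36 ± 0.37 SE did not pass (adjusted p = 0.391 by edgeR). Timd4 had 0.588, 0.490, 0.871 and 2.54 CPM in MI hearts, against 1.66, 1.37 and 2.07 CPM in sham hearts. Of the MI hearts, 3 lay below and 1 above all sham hearts (log2 change -0.64 ± 0.53 SE, adjusted p = 0.293 by edgeR). Without MI replicate 4, Timd4 passed at -1.39 (adjusted p = 0.0126 by edgeR; 0.000466 to 0.991 over the settings tried). Cd163 had 2.78, 5.85, 9.86 and 9.83 CPM in MI hearts, against 5.05, 5.23 and 6.34 CPM in sham hearts, and did not pass (0.35 ± 0.39 SE, adjusted p = 0.429 by edgeR). Under total-count scaling Cd163 passed at 1.42 (adjusted p = 0.0029 by edgeR; 0.0029 to 0.831 over the settings tried).

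In total, 5 of 9 tested markers were higher and 1 was lower in MI hearts. In the same comparison 37.1% of all tested genes were higher and 32% were lower, so the count alone does not set the markers apart. Their median log2 fold change was 1.18, against 0.14 over all genes. Under total-count scaling the median of all genes was 1.23, and 86.1% of the called genes were higher, in place of 53.7%.

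**Figure D2:**
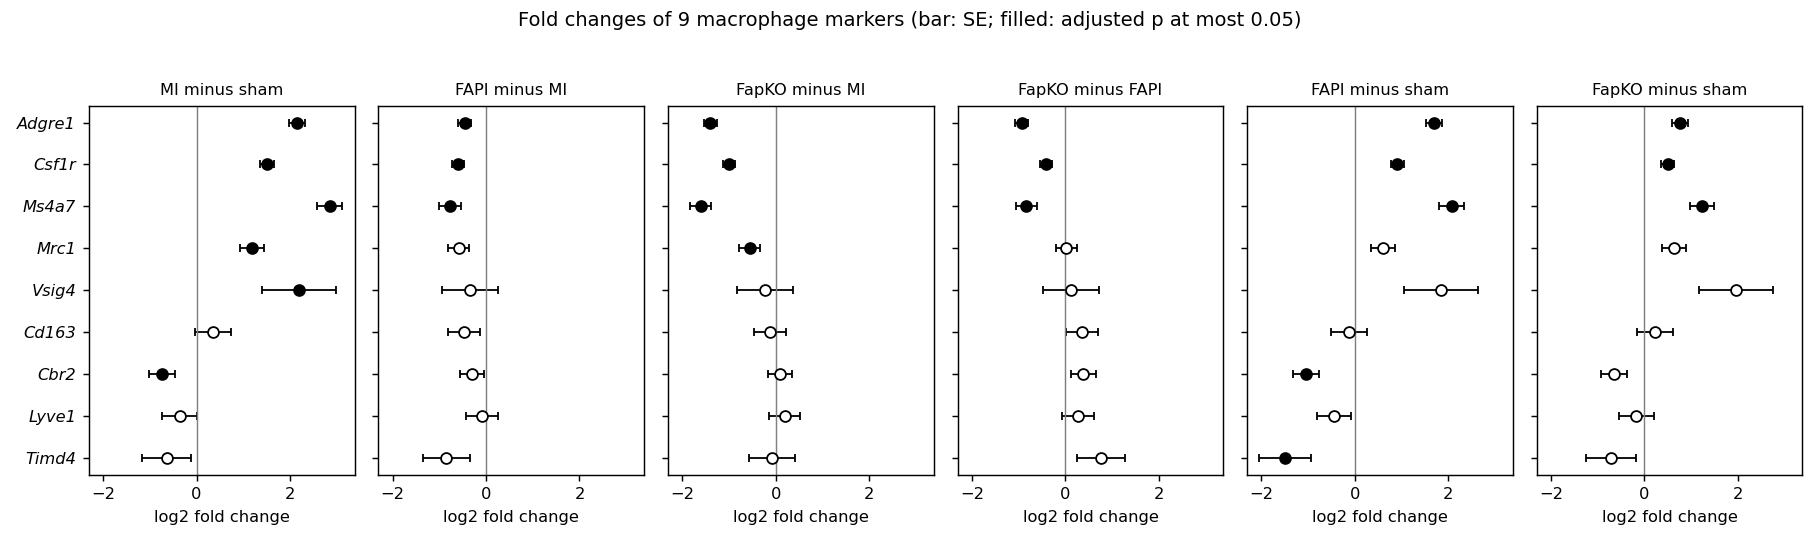
Log2 fold changes of the 9 tested markers in 6 comparisons (points are edgeR estimates, bars SE, filled points have an adjusted p of at most 0.05; first-named group over second). Adgre1, Csf1r and Ms4a7 are filled in each panel, above 0 against sham hearts and below 0 in FAPI and FapKO against MI hearts. Cbr2 is below 0 in MI against sham hearts, at -0.74, and at 0.34 under total-count scaling.

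The lists around the markers give the setting of these changes. A list of 10 general macrophage genes that holds none of the markers had 10 higher in MI hearts, with a median log2 fold change of 2.17. Its summed level was 7858 to 12040 CPM in MI hearts and 1860 to 2131 CPM in sham hearts. Aif1, a cytoskeletal gene of activated macrophages, had a log2 fold change of 1.84, and the IgG receptor gene Fcgr1 one of 2.53. Of 12 recruited monocyte genes, 11 were higher and 1 was lower (median 2.50), among them Plac8 at 3.18. Nr4a1, a nuclear receptor gene of patrolling monocytes that other cells also induce, was the one that fell, to 8.38 CPM in MI hearts, against 77.1 CPM in sham hearts.

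Of 24 further genes linked to resident macrophages, 13 were higher and 2 were lower in MI hearts, with a median log2 fold change of 1.52. Stab1, a scavenger receptor gene also used by endothelium, was higher at 1.73. Mgl2, a lectin gene, was lower at 2.29 CPM in MI hearts, against 27.2 CPM in sham hearts (log2 fold change -3.59). The other one that fell was Clec4f, which had under 1 CPM in both groups. F13a1, which encodes a coagulation factor subunit, had a log2 fold change of 0.05 and the chemokine gene Pf4 one of -0.05, and neither passed.

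Of 14 genes of the Csf1r pathway and the macrophage programme around it, 13 were higher and 1, the adaptor gene Grb2, was lower in MI hearts (median 2.04), although Grb2, at -0.56 with TMM, turned to 0.53 under total-count scaling. Spi1, which encodes PU.1 and is also in the general macrophage list, had a log2 fold change of 1.98, Runx1 one of 2.63 and Irf8, an interferon regulatory factor gene of the myeloid lineage, one of 2.10. The ligand genes had smaller fold changes. Csf1 had 23.6 CPM in MI hearts and 18.5 CPM in sham hearts (log2 fold change 0.35), and Il34 had 6.03 CPM in MI hearts and 3.68 CPM in sham hearts (0.71), and both passed.

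Of 18 genes for ligands and fellow receptors of scavenging, 17 were tested, and 14 were higher and 2 lower in MI hearts (median 1.18). Axl, a receptor for bridging molecules on dying cells, had a log2 fold change of 1.13. Haptoglobin (Hp), whose complex with haemoglobin Cd163 binds, had 333 CPM in MI hearts and 30.2 CPM in sham hearts. The fatty acid transporter gene Cd36, which cardiomyocytes and endothelium also express, had 148 CPM in MI hearts and 630.5 CPM in sham hearts and was 1 of the 2 that fell. The other was Scarb1, a lipoprotein receptor gene, at -0.36 with TMM and 0.73 under total-count scaling.

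To ask whether a marker changed more or less than macrophage genes at large, each heart was scaled to its own general macrophage list. On this scale most genes of the tissue fall after MI, since the list rises. The median of all genes was -2.05, and 83.5% of them were lower and 0.832% higher. Of the 9 tested markers 6 were lower and 1 was higher, a share of lower calls below that of all genes, and their median was -0.96. Adgre1 moved with the list, with a log2 ratio of -2.61 ± 0.16 in MI hearts and -2.56 ± 0.13 in sham hearts (SD, n = 4 and n = 3; difference -0.05 ± 0.18 SE, adjusted p = 0.823 by edgeR). Ms4a7 rose beyond it, by 0.61 ± 0.24 SE (adjusted p = 0.0204 by edgeR), a call lost without sham replicate 1 (0.60), sham replicate 3 (0.54) or MI replicate 1 (0.50).

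Cbr2, Timd4 and Lyve1 had the largest drops relative to the list, at -2.94, -2.83 and -2.51, each beyond the median of all genes. The log2 ratio of Timd4 was -9.26, -9.13, -8.20 and -6.95 in MI hearts, against -5.19, -5.60 and -5.03 in sham hearts (adjusted p = 4.07e-05 by edgeR). Every MI heart lay below every sham heart, MI replicate 4 included. The same held for Cbr2 (-4.0 to -2.48 in MI hearts and -0.43 to 0.16 in sham hearts, adjusted p = 4.84e-08 by edgeR) and for Lyve1 (-5.65 to -3.57 in MI hearts and -1.87 to -1.50 in sham hearts, adjusted p = 3.88e-06 by edgeR). Cd163 fell by 1.79, Mrc1 by 0.96 and Csf1r by 0.69 on this scale and passed, less than the median gene. Vsig4 was at -0.01 and did not pass. Leaving out MI replicate 4 and FapKO replicate 4 was an alternative chosen after seeing the data, for their high marker levels. In that fit Vsig4 was at -1.02 and passed (adjusted p = 0.00639 by edgeR, and 0.00639 to 0.985 over the settings tried).

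**Figure D3:**
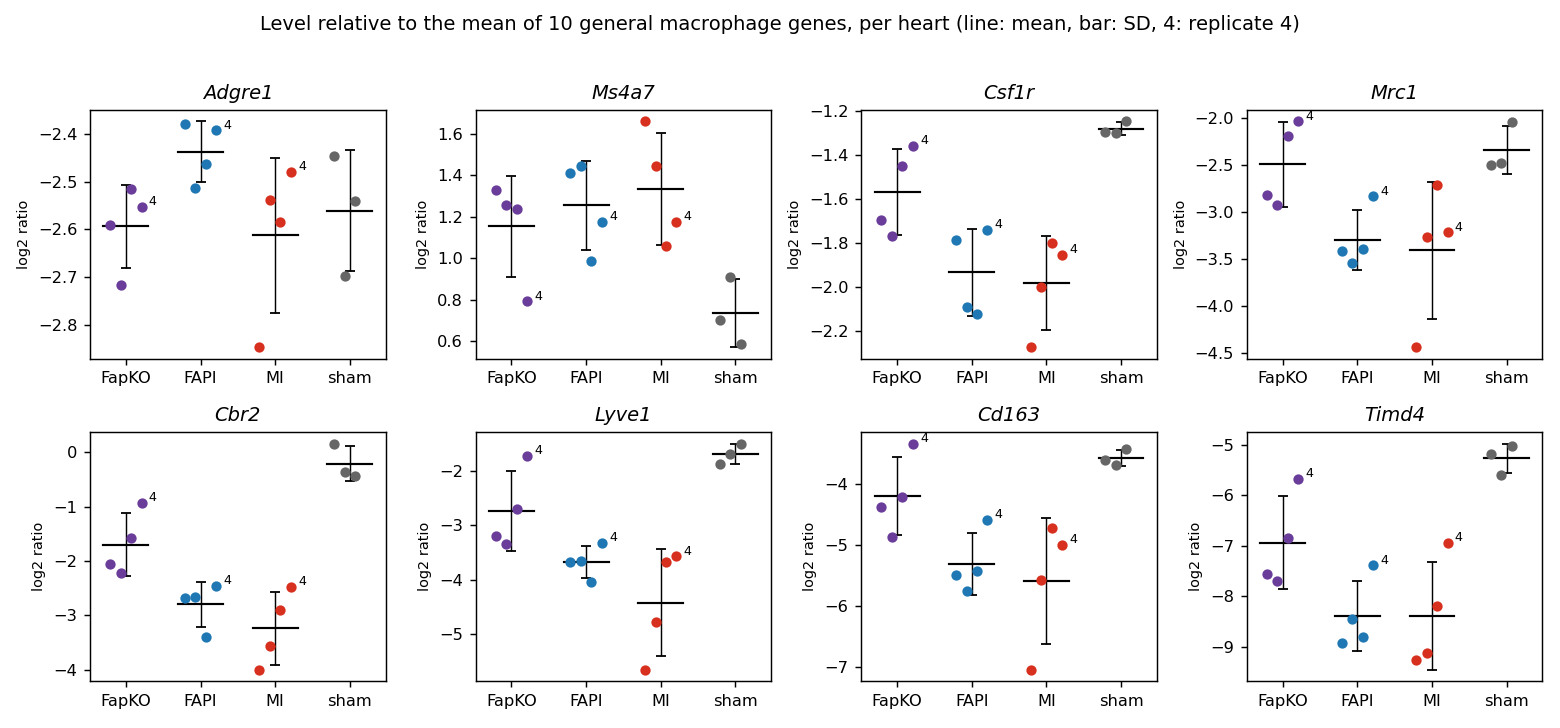
Log2 ratio of 8 markers (not Vsig4 and Folr2) to the mean of 10 general macrophage genes in each heart (points are hearts, lines means, bars SD; axes differ between panels; the digit 4 marks replicate 4). Adgre1 stays within a narrow band of -2.85 to -2.38 in all 15 hearts. Cbr2, Lyve1, Cd163, Timd4, Mrc1 and Csf1r are lower in every MI heart than in every sham heart. On this scale 83.5% of all tested genes were called lower in MI than in sham hearts.

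The next comparisons ask what the Fap inhibitor and the Fap knockout did after MI. They share the MI hearts, so their values stand side by side and not as 2 independent results. In FAPI hearts, 3 of 9 tested markers were lower than in MI hearts and 0 were higher, against 11.9% of all genes lower and 17.9% higher. Under total-count scaling, which moved the median of all genes to -0.44, 7 markers were lower, against 49.7% of all genes lower and 8.49% higher. In FapKO hearts, 4 of 9 were lower than in MI hearts and 0 were higher, against 26% lower and 25% higher. Adgre1, Csf1r and Ms4a7 fell in both, and Mrc1 also fell in FapKO hearts. The median of the markers was -0.48 in FAPI against MI hearts and -0.23 in FapKO against MI hearts, beside medians of -0.03 and -0.08 over all genes.

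Adgre1 had 37.0, 30.4, 47.1 and 30.9 CPM in FAPI hearts, against 43.5 to 56.8 CPM in MI hearts. FAPI replicate 3 lay inside the MI range (log2 change -0.46 ± 0.14 SE, adjusted p = 0.0230 by edgeR). The call was lost without MI replicate 4 (-0.40), FAPI replicate 2 (-0.39) or FAPI replicate 4 (-0.39). In FapKO hearts Adgre1 had 19.5, 23.0, 15.2 and 18.3 CPM, below every MI heart and above every sham heart. It was 2.63-fold lower than in MI hearts (log2 change -1.40 ± 0.15 SE, adjusted p = 1.8e-06 by edgeR).

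Csf1r had 55.8, 40.8, 59.7 and 48.6 CPM in FAPI hearts and 36.2, 44.5, 31.8 and 41.9 CPM in FapKO hearts, against 70.3 to 87.7 CPM in MI hearts. Neither group overlapped the MI hearts. The log2 fold change was -0.59 ± 0.13 SE in FAPI against MI hearts (adjusted p = 0.00248 by edgeR) and -1.0 ± 0.13 SE in FapKO against MI hearts (adjusted p = 1.02e-05 by edgeR). Ms4a7 had 513, 472, 516 and 367 CPM in FAPI hearts and 295, 361, 205 and 186 CPM in FapKO hearts, against 544 to 1169 CPM in MI hearts, also with no overlap. Its log2 fold change was -0.78 ± 0.23 SE in FAPI against MI hearts (adjusted p = 0.0180 by edgeR), lost without MI replicate 1 (-0.53) or FAPI replicate 4 (-0.68). In FapKO against MI hearts it was -1.61 ± 0.23 SE (adjusted p = 3.46e-05 by edgeR).

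Mrc1 had 18.0, 14.9, 24.7 and 22.8 CPM in FAPI hearts and 16.6, 19.9, 19.1 and 26.3 CPM in FapKO hearts, against 17.1 to 40.1 CPM in MI hearts. Both groups overlapped the MI hearts. The knockout value passed at -0.56 ± 0.23 SE (adjusted p = 0.0490 by edgeR) and did not in 11 of 18 other settings. Among them were leaving out MI replicates 2 (-0.57), 3 (-0.39) or 4 (-0.49) and FapKO replicates 1 (-0.47), 2 (-0.54) or 3 (-0.52). The inhibitor value, -0.58 ± 0.22 SE, missed the threshold (adjusted p = 0.0621 by edgeR) and passed without MI replicate 1 (-0.78) or FAPI replicate 3 (-0.69). It also passed by DESeq2 (-0.57), with no filter on low counts (-0.57) and under total-count scaling (-0.98). A difference between the 2 effects was not detected (FapKO minus FAPI, 0.02 ± 0.23 SE, adjusted p = 0.959 by edgeR).

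In the main fit, Timd4, Lyve1, Cbr2, Cd163 and Vsig4, called the resident-type markers here, did not pass in either comparison. Under total-count scaling Timd4 (-1.29), Cd163 (-0.89) and Cbr2 (-0.72) passed as lower in FAPI against MI hearts. With replicate number as a block, Timd4 passed there too (-0.76). Timd4 had 0.379, 0.475, 0.568 and 0.953 CPM in FAPI hearts and 0.601, 0.715, 0.737 and 2.07 CPM in FapKO hearts, against 0.490 to 2.54 CPM in MI hearts. All 3 groups overlapped. Its log2 fold changes were -0.85 ± 0.51 SE in FAPI against MI hearts (adjusted p = 0.223 by edgeR) and -0.08 ± 0.49 SE in FapKO against MI hearts (adjusted p = 0.904 by edgeR). Lyve1 had 15.1, 13.8, 15.7 and 16.2 CPM in FAPI hearts, the narrowest spread of the 4 groups for this gene, and 12.8, 14.9, 13.4 and 32.5 CPM in FapKO hearts. Cbr2 had 29.9, 27.5, 24.8 and 29.7 CPM in FAPI hearts and 28.3, 32.5, 29.0 and 56.7 CPM in FapKO hearts.

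Cd163 had 4.24, 3.18, 5.98 and 6.73 CPM in FAPI hearts and 5.62, 5.14, 4.64 and 10.6 CPM in FapKO hearts. Vsig4 had 8.24, 3.58, 9.21 and 6.84 CPM in FAPI hearts and 3.39, 4.33, 3.61 and 19.0 CPM in FapKO hearts. The log2 fold changes against MI hearts of Lyve1, Cbr2, Cd163 and Vsig4 were -0.08, -0.31, -0.48 and -0.35 in FAPI hearts and 0.19, 0.08, -0.12 and -0.23 in FapKO hearts, with SE of 0.26 to 0.60. None passed in the main fit, and a p that misses the threshold does not show that these levels were alike.

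Markers of other cell types moved too. The 10 neutrophil genes summed to 54.6 to 67.9 CPM in FapKO hearts, 44.0 to 71.8 CPM in FAPI hearts, 115 to 870.3 CPM in MI hearts and 41.6 to 53.4 CPM in sham hearts, and their part in the marker changes was not tested. Of the 10 adipocyte genes, 8 were higher and 1 lower in MI than in sham hearts (median 3.28), 0 were higher and 9 lower in FAPI than in MI hearts (median -3.40) and 1 was higher and 6 lower in FapKO than in MI hearts (median -1.31). Their mean log2 level was 3.06 to 5.07 in FapKO hearts, 1.54 to 3.32 in FAPI hearts, 4.84 to 5.51 in MI hearts and 2.46 to 3.03 in sham hearts. The highest FapKO heart was replicate 4. MI replicates 4, 2 and 3 lay close together, at 5.51, 5.46 and 5.44, and summed CPM was highest in MI replicate 3 (2533, against 2451 in MI replicate 4). The part of adipocytes in the marker changes was not tested either. Several macrophage lists moved with the broad markers, and others did so less in FAPI hearts. Of the 10 general macrophage genes, 7 were lower in FAPI than in MI hearts (median -0.65) and 10 were lower in FapKO than in MI hearts (median -1.32). Of the 14 Csf1r pathway genes, 10 were lower in FAPI and 12 in FapKO hearts. Under total-count scaling all 14 were lower in both, against 49.7% and 61.3% of all genes. Csf1 had a log2 fold change with TMM of -0.18 in FAPI hearts, which did not pass, and of -0.47 in FapKO hearts, which did. Il34 was at 0.04 and -0.04 and did not pass in either. Of the 24 further resident macrophage genes, 13 were lower and 1 higher in FAPI hearts, and 11 were lower and 2 higher in FapKO hearts. Mgl2 was among the higher ones in both, at 0.75 in FAPI and 1.57 in FapKO hearts against MI hearts. Under total-count scaling Mgl2 was at 0.34 in FAPI hearts and did not pass, and at 1.03 in FapKO hearts and did, and 0 of the 24 were then higher in FAPI hearts. Of the 12 recruited monocyte genes, 7 were lower and 1 higher in FAPI hearts and 9 were lower and 0 higher in FapKO hearts. Plac8 was at -1.15 in FAPI and -2.62 in FapKO hearts. Of 12 genes of lipid-associated macrophages, 1 was higher and 1 lower in FAPI hearts (median -0.22). In FapKO hearts 1 of them was higher and 9 were lower (median -0.95). Of 8 genes of body-cavity macrophages, 1 was higher and 2 lower in FAPI hearts, and 2 were higher and 3 lower in FapKO hearts.

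Relative to the general macrophage list, 0 of 9 markers passed in FAPI against MI hearts by edgeR (0 at an unadjusted p below 0.05, and no other tool was run on this scale), while 54% of all genes were higher and 0.985% lower. Without MI replicate 4 the count was 1, Vsig4 (1.29). In FapKO against MI hearts, 7 of 9 were higher on this scale, against 86.6% of all genes (0.563% lower), a share near the background. The values were 1.60 for Lyve1, 1.52 for Cbr2, 1.36 for Timd4, 1.27 for Cd163, 1.24 for Vsig4, 0.84 for Mrc1 and 0.41 for Csf1r, beside a median of 1.35 over all genes. Without FapKO replicate 4 the count was 4. The share of all genes was not taken on this scale for fits without a single heart. Adgre1 (0.01 ± 0.16 SE) and Ms4a7 (-0.19 ± 0.22 SE) moved with the list and did not pass. The Vsig4 call was lost without MI replicates 1 (0.98), 2 (0.998) or 3 (1.08) or FapKO replicate 4 (0.18), and the Csf1r call without MI replicates 1 (0.32), 2 (0.40) or 4 (0.45) or FapKO replicates 3 (0.37) or 4 (0.34). The Timd4 call was lost without FapKO replicate 4 (0.73).

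The knockout and the inhibitor were also compared directly, which tests the difference of their effects. FapKO hearts had lower Adgre1, Csf1r and Ms4a7 than FAPI hearts, 3 of 9 tested markers, against 7.05% of all genes lower and 6.12% higher. The median of the markers was 0.12, beside -0.02 over all genes. Adgre1 was 1.91-fold lower with no overlap, at 15.2 to 23.0 CPM in FapKO hearts and 30.4 to 47.1 CPM in FAPI hearts (log2 change -0.94 ± 0.15 SE, adjusted p = 0.000671 by edgeR). It passed in each of the 18 other settings tried. Ms4a7 was lower with no overlap (log2 change -0.83 ± 0.23 SE, adjusted p = 0.0249 by edgeR), a call lost without FAPI replicates 1 (-0.79), 2 (-0.82) or 3 (-0.78) or FapKO replicates 3 (-0.73) or 4 (-0.70). Csf1r was lower with overlapping groups (log2 change -0.41 ± 0.13 SE, adjusted p = 0.0432 by edgeR), and that call was lost without FAPI replicates 1 (-0.37) or 3 (-0.33) or FapKO replicates 1 (-0.38), 3 (-0.33) or 4 (-0.45). It was also lost in a fit of only the 2 groups (-0.41) and with the cardiomyocyte covariate (-0.32). General macrophage genes were lower in 6 of 10 cases (median -0.75). On the scale of that list, 5 of 9 markers were higher, namely Timd4, Lyve1, Cd163, Mrc1 and Cbr2, against 69.7% of all genes (0.563% lower). Without FapKO replicate 4, 1 marker, Cbr2, was, and the share of all genes was not taken for that fit. Without FAPI replicate 3 Lyve1 was at 0.94 and did not pass, and without FapKO replicate 2 Csf1r was at 0.43 and did.

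Against sham hearts, which these comparisons share, the broad markers were higher in both Fap groups. Adgre1 was 3.25-fold higher in FAPI hearts and 1.70-fold higher in FapKO hearts, Csf1r 1.88-fold and 1.42-fold, and Ms4a7 4.22-fold and 2.37-fold (edgeR adjusted p of 7.95e-07 to 0.0103 over the 6 values). The Csf1r call in FapKO hearts was lost without sham replicate 1 (log2 fold change 0.45). In FAPI hearts 3 of 9 markers were higher and 2 lower than in sham hearts, against 29.2% of all genes higher and 26.5% lower. In FapKO hearts 3 were higher and 0 lower, against 19.2% higher and 20.3% lower. The median of the markers was 0.60 in FAPI and 0.50 in FapKO hearts, beside 0.09 and 0.05 over all genes.

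The 2 markers below sham in FAPI hearts were Cbr2 and Timd4. Cbr2 lay at 24.8 to 29.9 CPM in FAPI hearts, below all sham hearts (log2 change -1.05 ± 0.28 SE, adjusted p = 0.00444 by edgeR), and did not pass under total-count scaling (-0.37). Timd4 lay at 0.379 to 0.953 CPM in FAPI hearts, also below all sham hearts (-1.49 ± 0.56 SE, adjusted p = 0.0318 by edgeR). These values rest on 11 to 33 Timd4 counts per FAPI heart, and the call was lost without sham replicates 1 (-1.51) or 3 (-1.33) or FAPI replicates 1 (-1.33), 2 (-1.40) or 3 (-1.46) and under total-count scaling (-0.85). In FapKO hearts Cbr2 was at -0.66 ± 0.28 SE (adjusted p = 0.0703 by edgeR) and Timd4 at -0.72 ± 0.54 SE (adjusted p = 0.301 by edgeR). Without FapKO replicate 4, Cbr2 passed in FapKO against sham hearts at -0.95 (adjusted p = 0.0111 by edgeR; 0.000954 to 0.758 over the settings tried).

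On the scale of the general macrophage list, 6 of 9 markers were lower and 1 was higher in FAPI than in sham hearts, against 77.5% of all genes lower and 1.31% higher. Timd4 was at -3.01, Cbr2 at -2.57, Lyve1 at -1.97 and Cd163 at -1.67, beside a median of -1.45 over all genes. The higher one was Ms4a7 at 0.53, a call lost without any 1 of the sham hearts (0.46 to 0.62) or of FAPI replicates 1 (0.47), 2 (0.46) and 4 (0.56). In FapKO against sham hearts 2 were lower and 0 higher, against 52.2% of all genes lower and 1.92% higher. These were Timd4 at -1.47 and Cbr2 at -1.42, beside a median of -0.71. The Timd4 call was lost without sham replicates 1 (-1.44) or 3 (-1.34) or FapKO replicates 1 (-1.27) or 2 (-1.22). Lyve1 was at -0.91 and did not pass, and passed without FapKO replicate 4 (-1.38).

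Mrc1 and Vsig4 missed the threshold against sham hearts in both Fap groups and passed in several other settings. Mrc1 was at 0.60 in FAPI and 0.63 in FapKO hearts, and passed in FAPI hearts without sham replicate 3 (0.80) or FAPI replicate 2 (0.72) and in FapKO hearts without sham replicate 3 (0.82). Vsig4 was at 1.84 in FAPI and 1.96 in FapKO hearts, and passed in FAPI hearts without FAPI replicate 2 (2.06) and in FapKO hearts without FapKO replicates 1 (2.20) or 3 (2.20). Both genes also passed in both groups with no filter on low counts, in fits of only the 2 groups compared and under total-count scaling, and Vsig4 by DESeq2 as well.

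MI replicate 4 and FapKO replicate 4 stood apart from their groups in the resident-type markers. In MI replicate 4, 9 of 10 markers were above the group mean, with a mean deviation over the 10 of 0.63 in log2 CPM. In FapKO replicate 4, 8 of 10 were, with a mean deviation of 0.62. Of the 9 tested markers, the excess was largest in Vsig4, Timd4, Lyve1, Cbr2 and Cd163, at 0.64 to 1.83 above the group mean, and at most 0.19 in the broad markers. MI replicate 3 was as high as MI replicate 4 for Cd163 (0.644 and 0.639) and also above the mean for Lyve1 (0.517). Folr2 was 0.85 above the mean in FapKO replicate 4, on 7 counts, and 0.07 above it in MI replicate 4. Ms4a7 was below the group mean in both hearts, and Adgre1 in FapKO replicate 4. The mean log2 level of the general macrophage list was 6.75 in FapKO replicate 4, within the 6.44 to 7.24 of its group, and 8.31 in MI replicate 4, within the 8.03 to 8.53 of its group. Genes of other lists were high in the same hearts. Fcna, a ficolin gene, had 31.3 CPM in FapKO replicate 4 and 6.18 to 10.6 CPM in the other FapKO hearts, and 59.0 CPM in MI replicate 4 and 9.80 to 18.8 CPM in the other MI hearts. The scavenger receptor gene Marco had 9.79 CPM in FapKO replicate 4 against 0.601 to 1.44 CPM in the rest, and 22.8 CPM in MI replicate 4 against 1.93 to 5.38 CPM in the rest. Cxcl13, a chemokine gene of body-cavity macrophages and lymphoid stroma, had 243 CPM in FapKO replicate 4 and 5.62 to 60.3 CPM in the others. In MI replicate 4 it had 330 CPM, and in the other MI hearts 28.8 to 97.7 CPM. Gata6, the factor that defines macrophages of body cavities and that heart muscle also expresses, had 22.6 to 26.1 CPM in all 4 FapKO hearts and 15.7 to 25.6 CPM in all 4 MI hearts. The 8 body-cavity macrophage genes as a list had a mean log2 level of 4.94 in FapKO replicate 4, above the 3.71 to 4.33 of the other FapKO hearts, and of 5.04 in MI replicate 4, below the 5.14 of MI replicate 3. Of this list, Icam2 was lowest of the FapKO hearts in replicate 4, and Prg4 was highest of the MI hearts in replicate 3. Fcna, Marco, Cxcl13, Icam2, Prg4 and Gata6 were picked for this after their values were seen.

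Both hearts were then left out, an alternative chosen after seeing the data. They were picked for their high resident-type marker levels, so dropping them lowers the group means of those markers by construction. The calls below describe that choice and are not evidence of a change. In MI against sham hearts 8 of 9 markers passed, 5 higher and 3 lower, against 35.9% of all genes higher and 31.2% lower. Timd4 (-1.39) and Lyve1 (-0.71) then joined Cbr2 (-1.08) as lower, and Vsig4 was at 1.14. In FapKO against MI hearts 3 markers were lower, Adgre1, Csf1r and Ms4a7, against 21.6% of all genes. In FapKO against FAPI hearts 2 were lower (5.31% of all genes), Adgre1 (-0.92) and Vsig4, whose value was -0.88, against 0.12 with all hearts. In FAPI against MI hearts 2 were lower (8.54% of all genes). In FapKO against sham hearts 4 were higher and 2 lower, against 16.1% and 16.7% of all genes.

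**Figure D4:**
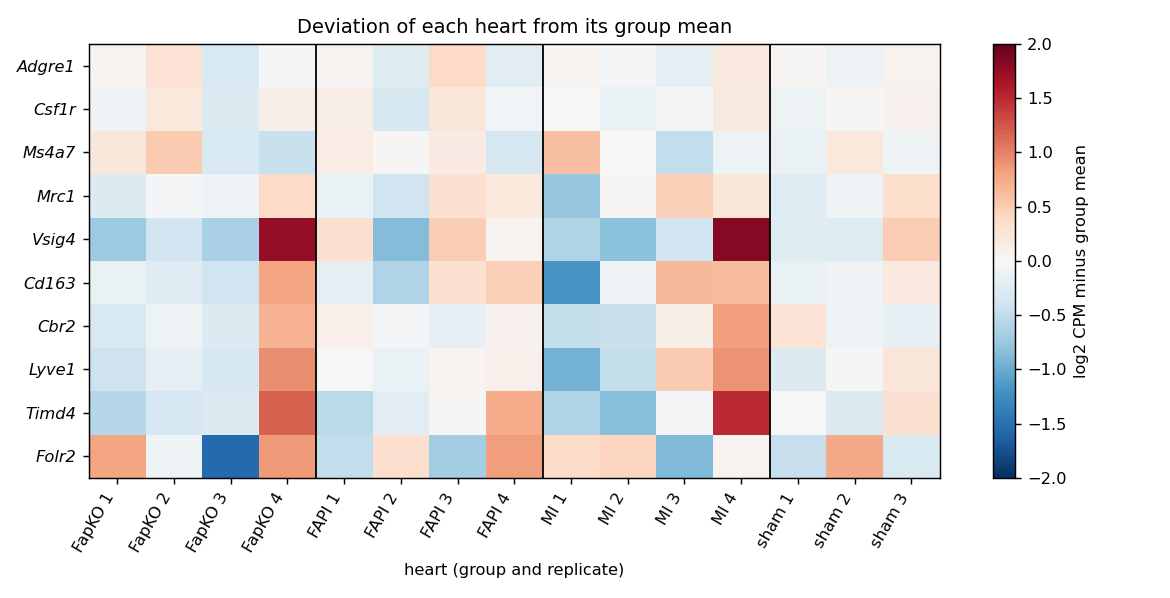
Deviation of each heart from the mean of its group for the 10 markers (colour, log2 CPM, limited to -2 and 2; columns are hearts, black lines part the groups). FapKO 4 and MI 4 are the columns with red cells for Vsig4, Timd4, Lyve1, Cbr2 and Cd163, and their cells for Adgre1, Csf1r and Ms4a7 are near white or blue.

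Lyve1 also marks lymphatic endothelium, so that cell type's markers were looked at beside it. Of 8 lymphatic genes 7 were tested. The summed level was 70.5 to 91.0 CPM in FapKO hearts, 81.0 to 115 CPM in FAPI hearts, 97.0 to 120 CPM in MI hearts and 59.5 to 75.8 CPM in sham hearts. Prox1, the factor that defines lymphatic cells and that cardiomyocytes also express, had 3.26 CPM in MI hearts and 20.4 CPM in sham hearts. Flt4, the receptor for lymphatic growth factors, had 12.6 CPM in MI hearts and 9.94 CPM in sham hearts. Flt4 lay between 10.2 and 16.0 CPM in the FapKO, FAPI and MI hearts, and in FapKO replicate 4, where Lyve1 reached 32.5 CPM, it had 14.8 CPM. The part of lymphatic cells in the Lyve1 level was not tested.

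Some markers ran alike over the 15 hearts. Likeness was the root-mean-square difference of log2 CPM after each gene was centred on its own mean. Among the markers, Adgre1 was closest to Csf1r (0.320) and Ms4a7 (0.344), and Lyve1 was closest to Cbr2 (0.337) and Cd163 (0.351). Among 9143 other genes with a mean of at least 5 CPM, Csf1r was most like Vsir (0.0967), an inhibitory receptor gene of myeloid and T cells. Adgre1 was most like Irf5 (0.114), an interferon regulatory factor gene, and Cd48 (0.120), a leukocyte adhesion gene. Ms4a7 was most like Ms4a6d (0.21), of the same gene family, with Loxl3 (0.214) and Itga11 (0.219) nearly as close. Lyve1 and Cd163 had the same nearest gene, F13a1, at 0.322 and 0.264. Mrc1 was most like Adamts5 (0.206), a matrix protease gene, and Vsig4 most like Lyz1 (0.471), a lysozyme gene. The nearest genes of Cbr2 were Gstz1 and Lmbr1 (0.290 each), and that of Timd4 was Sult1a1 (0.525), although Timd4 was nearer to the marker Cbr2 (0.439). Gstz1 and Sult1a1 encode enzymes of small-molecule metabolism. These are the smallest of many distances over the same hearts and carry no test.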

How the data were processed

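Total RNA of the hearts was made into libraries by a Smart-seq2 protocol adapted to carry UMIs, per the labels. The submitters' processing notes name STAR, HTSeq and mm10 and give no versions. The values the authors deposited are whole-number counts per gene, and 53620 of 53801 identifiers matched a GENCODE M21 symbol, without regard to the version suffix. Another table, whose 6 columns match no label, was left out.

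All 15 hearts entered 1 edgeR 4.0.16 quasi-likelihood fit (limma 3.58.1, R 4.3.3) with filterByExpr, TMM scaling and Benjamini-Hochberg adjustment over 17064 genes at 0.05. SE is the size of the log2 fold change over the square root of F. For the relative scale, the library size was replaced by the geometric mean count of the 10 general macrophage genes. Alternatives were DESeq2 1.42.0 and its size factors, total-count scaling, other filters, limma-voom, a replicate block, fits of 2 groups, a cardiomyocyte covariate, leukocyte genes or Cd68 and Fcgr1 as the relative scale, and each heart left out. The fit was tested on simulated data.

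The markers and lists were chosen with earlier results of these data known. Named genes were the markers, of each list the 2 with the smallest p in MI against sham hearts as examples, and nearest profiles; others named from the lists were chosen after their values were seen. Figures were made with Python 3.11.15 and matplotlib 3.10.9. Counts limit precision most for Folr2 and Timd4.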

Additional observations from a re-analysis of the deposited data

Results flagged for a closer look

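Among 30 groups of 4 hearts, 1 per marker and group, 4 held a heart whose gap to the nearest other heart exceeded Dixon's 95% critical value. Chance flags about 1 in 20 groups. The FapKO replicate 4 heart stood apart for Timd4 (log2 CPM 1.06), Lyve1 (5.02) and Vsig4 (4.25). The MI replicate 4 heart stood apart for Vsig4 (4.54). In each case it was the highest of its group.

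The effects of knockout and inhibitor, both against MI hearts, differed by the direct test for 3 markers. FapKO minus FAPI was -0.94 in log2 for Adgre1, -0.41 for Csf1r and -0.83 for Ms4a7, lower in FapKO hearts each time. The values without single hearts are given with the comparison.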

How the results depend on the processing

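Adgre1, Csf1r and Ms4a7 kept their direction and their call in MI against sham and in FapKO against MI hearts in each setting tried but the cardiomyocyte covariate. With that covariate the number of markers passing was 0 in MI against sham, FAPI against MI and FapKO against MI hearts, 1 in FapKO against FAPI and 3 in FAPI against sham hearts. The numbers of all genes passing were 869, 26, 115, 1425 and 5163. In FAPI against MI hearts Adgre1 then turned to 0.13 (adjusted p = 0.989 by edgeR; 0.00185 to 0.989 over the settings) and Ms4a7 to 0.25 (adjusted p = 0.988 by edgeR; 0.00144 to 0.988). The cause was not tested.

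Total-count scaling gave 7 markers in FAPI against MI hearts (9933 genes in place of 5081) and 5 in FapKO against sham hearts (58.6% of all genes). This scaling turned Cbr2 in MI against sham hearts to 0.34 (adjusted p = 0.259 by edgeR, and 3.87e-05 to 0.898 over the settings). It moved the median of all genes to 1.23, -0.44, -0.63, -0.16, 0.77 and 0.59 in MI against sham, FAPI against MI, FapKO against MI, FapKO against FAPI, FAPI against sham and FapKO against sham hearts. Of the called genes, the part that was higher was then 86.1%, 14.6%, 16.6%, 32.1%, 86.8% and 91.7%, in place of 53.7%, 60.1%, 49.1%, 46.5%, 52.4% and 48.7%. In FapKO against sham hearts 6 markers passed with no filter, with only those 2 groups or without MI replicate 4 and FapKO replicate 4, and 5 by DESeq2. Of all genes, 18.4%, 46.2%, 32.8% and 39% passed in these settings. In FAPI against sham hearts 8 passed with only those 2 groups, beside 57.8% of all genes. Without both replicate 4 hearts, Vsig4 in FapKO against FAPI hearts turned to -0.88 (adjusted p = 0.0457 by edgeR; 0.0457 to 0.991; -0.88 to 0.36 with hearts left out). The relative scale then gave 2 markers in FAPI against MI and 1 in FapKO against FAPI hearts, beside 40.4% and 57.4% of all genes.

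Leaving out 1 heart gave 4 to 6, 1 to 4, 3 to 4, 1 to 3, 4 to 6 and 2 to 4 markers in those 6 comparisons, in the same order. All genes passing numbered 10803 to 11597, 3359 to 5495, 7383 to 8681, 1125 to 2920, 8067 to 9539 and 4706 to 6832. The lowest of the FAPI against MI counts came without FAPI replicate 4, and the 1125 of FapKO against FAPI without FapKO replicate 3, where all hearts gave 2247. On the relative scale the counts were 6 to 7, 0 to 1, 4 to 7, 1 to 6, 6 to 7 and 1 to 3. The numbers of all genes passing were not taken for these fits, so changes in the counts cannot be set against them. With all hearts, the larger called share of all genes on this scale was 83.5%, 54%, 86.6%, 69.7%, 77.5% and 52.2%. With leukocyte genes as the relative scale, the Vsig4 (1.07) and Csf1r (0.26) calls in FapKO against MI hearts were lost. Adgre1 then passed in FAPI against sham hearts (0.32). Csf1r passed in FapKO against FAPI hearts with leukocyte genes (0.30) and with Cd68 and Fcgr1 (0.53). With Cd68 and Fcgr1, the Ms4a7 call in FAPI against sham hearts was lost (0.47).

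With a replicate block, 5 markers passed in FAPI against MI and 6 in FapKO against sham hearts (29.1% and 39% of all genes), and on the relative scale 2 and 4 (49.5% and 51.4%). In MI against sham hearts 8 passed (68.5%), among them Timd4 at -1.26 and Lyve1 at -0.69, and on the relative scale Vsig4 passed at -0.86. Mrc1 passed in FAPI against MI, FAPI against sham and FapKO against sham hearts and Vsig4 in FAPI against sham hearts, while Csf1r in FapKO against FAPI hearts was lost (-0.41). Same-numbered hearts did not all deviate together (correlations of -0.425 to 0.411), so the numbers are not known to pair them. The 3 sham numbers each correlated best with the same-numbered MI heart (0.0956 to 0.27), a hint from the data and not the design. In FapKO against MI hearts, replicates 3 (0.398) and 4 (0.411) also matched best by number, and replicates 1 and 2 did not. In the remaining comparisons only replicate 3 of FAPI against sham hearts did (0.286). Depth limits Folr2 (1 to 10 counts) and Timd4 (11 to 66 counts) most.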

Other observations

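The cultured cardiac fibroblast libraries of the series also held reads of the markers. In fibroblasts co-cultured with endothelial cells and sorted as negative for the leukocyte marker CD45 and positive for Pdgfra, the 10 markers summed to 17.6 to 25.4 CPM, on 98 to 128 counts. In fibroblasts grown alone, which were not sorted, they summed to 70.2 to 97.8 CPM, on 904 to 1465 counts. Library totals were 4735337 to 6346015 counts in co-culture and 12871240 to 15650221 in fibroblasts alone. Ms4a7 and Csf1r made up most of both. Ms4a7 had 51, 61 and 51 counts in co-culture, against 833, 518 and 861 in fibroblasts alone, and Csf1r had 36, 37 and 41, against 343, 264 and 410. The culture and the sort changed together, so their parts cannot be told apart. Timd4, Folr2 and Cd163 had at most 2 counts in any of these 6 libraries.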
